A study of Mus musculus with 60 samples.

Results

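Collagens are the main structural proteins of the extracellular matrix, and the mouse genome encodes them in a family of genes named Col, a type number and the letter a with a chain number. A set of chains winds into a triple helix, which is then secreted and assembled. Fibrillar collagens (types I, III and V among them) form the banded fibers that give tissue its tensile strength, fibril-associated collagens decorate those fibers, type IV forms the sheet of the basement membrane, type VI forms beaded microfilaments around cells, and multiplexins (types XV and XVIII) sit at the border of basement membranes. Fibroblasts, and in liver the stellate cells, are known as main producers of fibrillar collagen, and adipocytes and endothelial cells lay down basement membrane. Members were the protein-coding genes with a symbol of this form and a mean of at least 0.5 FPKM (reads per kilobase of gene, scaled per library) in at least 1 tissue. Of 44 such genes among the 54532 in the table, 38 qualified. The others were Col4a3, Col4a4, Col6a4, Col10a1, Col17a1 and Col19a1, whose highest tissue means lay between 0.11 FPKM (Col10a1) and 0.449 FPKM (Col19a1, hypothalamus).

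The animals were male wild-type C57BL/6 mice with diet-induced obesity. High-fat feeding began at 12 weeks of age and lasted 16 to 20 weeks. At about 28 weeks of age the mice were injected daily for 1 week with vehicle (mice 1 to 5) or with sulforaphane (SFN) at 5 mg/kg (mice 6 to 10). SFN is an isothiocyanate from cruciferous vegetables that activates the transcription factor NRF2. Poly(A) RNA was sequenced from 3 fat depots, namely inguinal white fat (iWAT), epididymal white fat (eWAT) and brown fat (BAT), and from liver, skeletal muscle and hypothalamus, 60 libraries in all, and the labels give each library a mouse id, with each of the 10 ids once in every tissue. Every group was fed the same diet and no lean group is analysed here. The paper reports that SFN lowered food intake and body weight in obese mice. It regards the RNA changes as likely a mix of direct and secondary ones. No group matched for food intake is among these samples, so the part of intake and weight loss was not tested. Each tissue was compared alone, 5 mice against 5.

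The recovered depth was 14802638 to 25258292 reads per library, of which collagen genes took 0.0587% (skeletal muscle) to 2.14% (eWAT). The labelled tissues held their markers, for example summed skeletal muscle markers of 75715 to 95647 FPKM in muscle, but 4 iWAT libraries (vehicle mouse 2 and SFN mice 6, 7 and 8) held 252.4 to 461.7 FPKM of summed lymph node markers against 3.51 to 14.7 in the other 6. Muscle markers reached 3203.0 FPKM in a BAT library and 1354.6 in an iWAT library. In iWAT, Ckm averaged 22.0 ± 48.6 FPKM with vehicle and 0.00318 ± 0.0071 with SFN. Myh4 there averaged 48.9 ± 107.7 and 0.0198 ± 0.0212, so these 2 were raised only among vehicle libraries. Acta1 of iWAT averaged 122.2 ± 232.5 and 139.3 ± 82.9. In BAT the muscle gene Acta1 averaged 363.7 ± 618.2 FPKM with vehicle and 298.8 ± 586.7 with SFN, so it was uneven in both groups. BAT values are not given without such libraries, and the part of muscle RNA in BAT and iWAT values was not tested. Because of the lymph node markers, the SFN comparison in iWAT is also summarized without the 4 libraries. The iWAT levels of vehicle mice keep mouse 2, whose summed collagen was 982.7 FPKM, against 1516.6 to 1940.5 in the other vehicle mice.

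Short stretches of the start regions of a few members are shown because these genes recur in the results. They come from RefSeq on GRCm38.p6, which gives windows of 250 bases before and 50 after a start for 30 of the 38 members, 33 windows in all. Capitals mark CCAAT, a motif that many promoters carry and that was searched on both strands. It was in 11 of the 33 windows (33.3%), against 37.4% of all 32851 windows, and in 2 of the 7 liver-called members with a window, Col1a2 (109 bases before the start) and Col16a1 (113 bases before it). Col4a1 and Col4a2, the 2 chains of the common basement membrane collagen, lie head to head on chromosome 8, and their annotated first bases overlap by 22 bases, which are shown last. A match is only a match of letters.
Col1a2, chr6:4505497-4505525, plus strand: aaaagaatggaaCCAATttaagaagcccc
Col16a1, chr4:130047715-130047743, plus strand: cggcggtgcaggCCAATggccagtgcctc
Col4a2, chr8:11312761-11312789, plus strand: ccgaggagctccCCAATttgttggcgctg
Col4a1 and Col4a2 shared, chr8:11312805-11312826, plus strand: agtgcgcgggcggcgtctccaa

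Other members are also neighbors. Col6a1 (chromosome 10, 76708792 to 76726168) and Col6a2 (76595762 to 76623630) point the same way with 85161 bases between them. Col3a1 and Col5a2 on chromosome 1 end toward each other with 24614 bases between them, Col6a5 and Col6a6 on chromosome 9 are 27917 bases apart, and Col4a5 and Col4a6 on the X chromosome face away from each other across 1308 bases.

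The first question was where each collagen is expressed without SFN. In vehicle-treated mice, white fat held the most collagen RNA. The FPKM summed over the 38 members was 1886 ± 187.9 in eWAT and 1586 ± 369.3 in iWAT, against 826.8 ± 241.8 in BAT, 358.5 ± 19.7 in liver, 195.8 ± 15.7 in skeletal muscle and 100.2 ± 4.19 in hypothalamus (SD, n = 5 each). For 30 of the 38 members the highest tissue differed from each of the other 5 (limma on log2(FPKM + 0.1), adjusted p under 0.05 in each pair), while 69.1% of all 20043 genes tested met that rule, so the members' share is described beside it and not read further. With the mouse as a replicate block, which pairs tissues of the same animal, the count was 29. The highest tissue was eWAT for 14 members, hypothalamus for 8, iWAT for 6, skeletal muscle for 5, BAT for 3 and liver for 2. Levels of different genes are compared only as FPKM, which divides by the length of all annotated exons, so a gene with long unused exons reads low. In whole tissue, fewer cells of a type and less RNA per cell cannot be told apart.

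**Figure D1:**
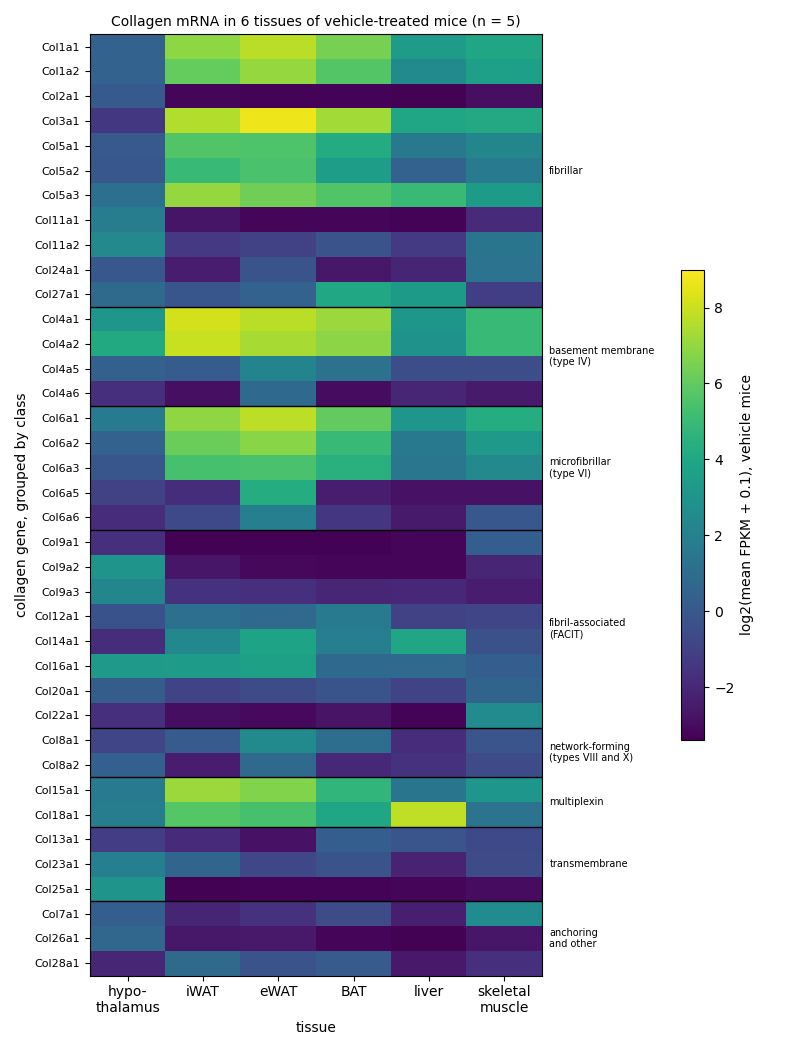
Mean level of the 38 collagen genes (rows, grouped by class) in 6 tissues (columns) of vehicle-treated mice, as the color of log2(mean FPKM + 0.1). Col3a1 in eWAT (415.7 FPKM) is brightest, Col18a1 stands alone as a bright cell in liver (228.4 FPKM), and Col9a2, Col25a1 and Col11a1 are bright in hypothalamus relative to the other tissues.

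Of the 11 fibrillar members, 4 were highest in eWAT (Col1a1, Col1a2, Col3a1 and Col5a2), and the others in hypothalamus, iWAT, BAT or muscle. Col3a1, the chain of the fine reticular fibers, averaged 415.7 ± 89.8 FPKM there, 189.7 ± 57.4 in iWAT, 157.7 ± 67.4 in BAT, 16.8 ± 3.83 in skeletal muscle, 14.6 ± 2.08 in liver and 0.288 ± 0.182 in hypothalamus. iWAT and BAT, and muscle and liver, were neighbors in this order that did not pass the test. Col1a1, the main chain of type I collagen, followed the same order from 210.7 ± 45.1 in eWAT to 1.29 ± 0.441 in hypothalamus. Col5a3, a chain of the fibril-initiating type V, was instead highest in iWAT (132.0 ± 31.2) and was the best expressed fibrillar chain in liver (31.6 ± 2.33) and, at 2.08 ± 0.599, not in hypothalamus, where Col11a2 (5.25 ± 0.453) and Col11a1 (3.46 ± 0.437) were higher. Col27a1, a fibrillar chain known mainly from cartilage, was highest in BAT (16.4 ± 1.05) and second in liver (10.0 ± 2.4), with every other tissue at or below 1.75. Col24a1 was highest in skeletal muscle (2.42 ± 0.555).

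The 2 abundant basement membrane chains were highest in iWAT, and the minor chains Col4a5 and Col4a6 in eWAT. Col4a1 averaged 285.8 ± 60.3 FPKM in iWAT, 208.7 ± 63.0 in eWAT, 139.2 ± 21.3 in BAT, 31.4 ± 3.81 in muscle, 8.93 ± 1.68 in liver and 8.53 ± 0.452 in hypothalamus. Col4a2 ran alongside it, with a ratio of Col4a1 to Col4a2 FPKM between 0.89 and 1.63 in the 50 libraries outside the brain and between 0.464 and 0.538 in the 10 hypothalamus libraries, so no hypothalamus library overlapped the rest. Col4a6 was at 1.71 ± 0.513 in eWAT and at most 0.215 elsewhere.

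Class by class, a single tissue often stood out. Type VI microfilament chains were highest in eWAT, though Col6a3 did not pass against iWAT, with Col6a1 at 219.7 ± 51.1 and Col6a2 at 111.8 ± 23.8 FPKM. Col6a5 (19.2 ± 5.66) was 47.8 times its level in the next tissue, hypothalamus. Among the multiplexins, Col18a1, whose C-terminal piece is endostatin, reached 228.4 ± 16.4 in liver, 4.36 times the level in iWAT, while Col15a1 reached 141.1 ± 27.1 in iWAT and only 2.57 ± 0.37 in liver. Hypothalamus led for Col25a1, a transmembrane collagen of neurons (8.06 ± 0.784, with every other tissue at or below 0.0259), Col9a2 (8.08 ± 0.62, at most 0.142 elsewhere), Col9a3 (4.77 ± 0.352) and Col23a1 (3.8 ± 0.414). Skeletal muscle led for Col22a1, a collagen of the junction between muscle and tendon (5.97 ± 1.15, at most 0.212 elsewhere), and Col7a1, the anchoring fibril chain (6.09 ± 1.52). Col14a1, which binds fibril surfaces, had 14.5 ± 1.7 in liver and 13.6 ± 4.49 in eWAT, and these 2 did not pass the test (log2 difference 0.14, standard error 0.336, adjusted p = 0.744).

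The next question was whether SFN changed collagen RNA. In liver, 8 of the 18 members tested were called lower in SFN mice and 1 higher. Of the 7 fibrillar genes tested 4 fell (Col1a1, Col1a2, Col3a1, Col5a1), as did the fibril-associated Col14a1 and Col16a1 and the microfilament chains Col6a2 and Col6a3, while Col15a1 rose. The background was 6.19% of all 13388 liver genes called lower and 6.89% called higher by limma, against 8 and 1 of 18 members.

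Col14a1 had the smallest p of the members. Its liver values were 11.8, 15.1, 13.9, 16.0 and 15.6 FPKM in vehicle mice 1 to 5 and 4.45, 6.15, 6.75, 5.63 and 6.94 in SFN mice 6 to 10. Every SFN mouse lay below every vehicle mouse (log2 fold change -1.27, standard error 0.127, adjusted p = 0.000626 by limma). Col1a1 read 7.71, 11.5, 12.9, 12.7 and 9.63 FPKM with vehicle and 2.96, 2.6, 5.11, 3.96 and 6.3 with SFN. These groups did not overlap either, and the mean fell from 10.9 ± 2.2 to 4.19 ± 1.53 (log2 fold change -1.41, standard error 0.238, adjusted p = 0.00753), the largest fold of the 18. Its partner chain Col1a2 read 3.86, 5.79, 6.57, 5.84 and 5.76 with vehicle and 2.03, 1.67, 3.22, 2.23 and 2.97 with SFN. It too separated without overlap (log2 fold change -1.18, standard error 0.19, adjusted p = 0.00637).

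Col3a1 had 11.5, 16.2, 16.0, 15.8 and 13.3 FPKM with vehicle and 5.61, 5.84, 8.45, 6.86 and 8.97 with SFN. The highest SFN mouse, mouse 10, stayed under the lowest vehicle mouse, mouse 1 (log2 fold change -1.03, standard error 0.149, adjusted p = 0.00449). Col6a3, the large chain of type VI, had 2.26, 3.03, 3.02, 2.48 and 2.5 FPKM with vehicle and 0.961, 1.28, 1.49, 1.45 and 1.71 with SFN. No overlap was seen there (log2 fold change -0.91, standard error 0.149, adjusted p = 0.00672). These 5 lower members were the 5 that did not overlap, against 5.8% of all genes in that direction.

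The remaining falls were smaller and the groups overlapped. Col5a1, which starts fibrils, read 2.24, 3.07, 3.21, 3.59 and 2.52 with vehicle and 1.57, 1.74, 2.15, 1.59 and 2.36 with SFN. SFN mouse 10 was above vehicle mouse 1 (log2 fold change -0.61, standard error 0.154, adjusted p = 0.029). Col6a2 read 3.24, 3.09, 3.12, 2.67 and 2.49 with vehicle and 1.54, 1.79, 2.14, 1.64 and 2.72 with SFN, again with mouse 10 inside the vehicle range (log2 fold change -0.57, standard error 0.149, adjusted p = 0.0333). Col16a1 read 1.64, 1.68, 1.22, 2.09 and 1.85 with vehicle and 0.905, 1.04, 1.38, 1.3 and 0.988 with SFN, with vehicle mouse 3 inside the SFN range (log2 fold change -0.55, standard error 0.163, adjusted p = 0.0489). These 3 lost their call without single mice, Col5a1 in 5, Col6a2 in 8 and Col16a1 in 8 of the 10 fits that left out a mouse. With no filter on low genes these 3 also did not pass, and with all tissues in 1 fit Col6a2 and Col16a1 did not. The other 6 called members kept the call in all 10 fits. EdgeR called 10 of the 18, the same 9 and Col6a1, and DESeq2 called 11, those 10 and Col4a1, with Col15a1 the 1 higher in both. The share of all genes called by edgeR or DESeq2 is not given, here or for other tissues. Their counts therefore have no background beside them.

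**Figure D2:**
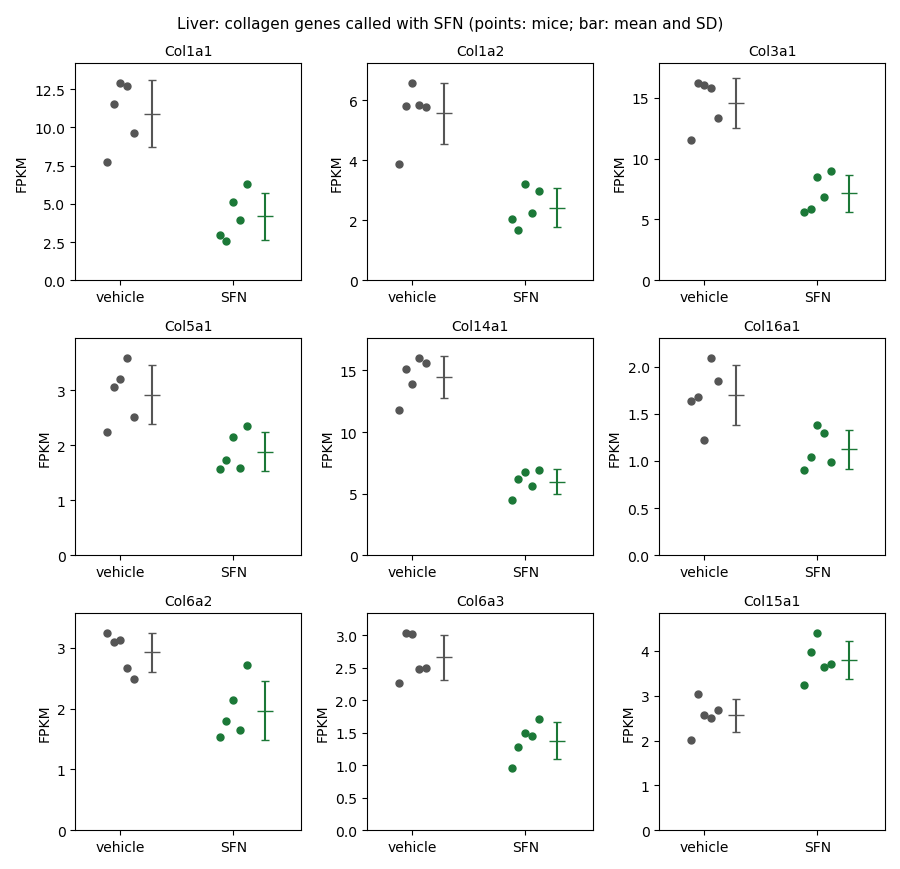
FPKM of the 9 collagen genes that passed in liver, one panel each, with vehicle mice in grey and SFN mice in green, points for mice and bars for the mean and SD (n = 5). Col1a1, Col1a2, Col3a1, Col14a1 and Col6a3 are lower with no overlap, Col5a1, Col6a2 and Col16a1 are lower with overlap, and Col15a1 is higher.

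Col15a1 went the other way in liver. It read 2.02, 3.05, 2.57, 2.5 and 2.68 FPKM with vehicle and 3.25, 3.98, 4.4, 3.64 and 3.7 with SFN. The lowest SFN mouse was above the highest vehicle mouse (log2 fold change 0.55, standard error 0.114, adjusted p = 0.0148). The most abundant liver collagen, Col18a1, was at 234.1, 244.2, 241.5, 214.0 and 208.2 with vehicle and 284.3, 215.1, 222.9, 274.2 and 294.5 with SFN. The ranges overlapped and it did not pass (log2 fold change 0.17, adjusted p = 0.296). Col5a3, next by level, read 32.1, 28.7, 31.8, 35.0 and 30.5 with vehicle and 31.4, 32.5, 25.3, 36.8 and 31.8 with SFN, a difference within the spread (log2 fold change -0.01, standard error 0.0943). Because Col18a1 makes up most of the sum, the summed collagen FPKM of liver was 358.5 ± 19.7 and 353.9 ± 42.7. Other members that did not pass with limma included Col6a1 (log2 fold change -0.49, adjusted p = 0.0568), Col4a1 (-0.47, adjusted p = 0.0973), Col4a2 (-0.35, adjusted p = 0.294) and Col27a1 (0.054). The median over the 18 was -0.48 against -0.018 over all genes tested, and 10 of 18 were lower at an unadjusted p under 0.05, against 15.7% of all genes.

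Genes that act on collagen chains did not all move one way in liver. Of the genes listed for procollagen hydroxylation and glycosylation, which include partner proteins of these enzymes, 6 of the 11 tested rose and 0 fell. They included the peptidyl-prolyl isomerase Ppib (40.6 ± 6.53 to 80.2 ± 12.9 FPKM, adjusted p = 0.00336), the lysyl hydroxylases Plod1 (12.7 ± 0.716 to 17.1 ± 1.36) and Plod3 and the prolyl hydroxylase subunit P4hb, which as protein disulfide isomerase also folds many other proteins. For folding and secretion, 1 of 10 rose (Sec13, a coat protein of transport vesicles) and 2 fell, Mia2, an export receptor (log2 fold change -0.4, adjusted p = 0.0116), and Creb3l1. Of the proteins that trim propeptides and cross-link fibers, 2 of 7 rose, the propeptidase Bmp1 (0.42, adjusted p = 0.0148) and Loxl4, and 2 fell, Adamts2 (-0.73) and Pcolce (-0.67). Of the enzymes of collagen breakdown and their inhibitors, 2 of 7 fell, the gelatinase Mmp2 (-0.82, adjusted p = 0.00566) and the inhibitor Timp2 (-0.73). Of the collagen receptors, 1 of 6 fell, the integrin Itgb1 (-0.24, adjusted p = 0.0204), and of the inducers and brakes of collagen transcription 1 of 11, the TGF-β receptor Tgfbr2 (-0.74, adjusted p = 0.0247). Beside the 6.19% of all liver genes called lower and 6.89% called higher, counts of 1 in lists of this size are near the background.

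Some markers of the cells known to make liver collagen were also lower, and Scara5, a fibroblast marker, was higher (log2 fold change 2.1, adjusted p = 0.00043). The 8 stellate cell markers summed to 112.1 to 148.0 FPKM with vehicle and 63.2 to 103.5 with SFN, and 3 of the 7 tested were called lower (Reln from 3.23 to 1.78 FPKM, Colec11 and Nes), with Lrat, which stores vitamin A, at 6.09 and 3.27 (adjusted p = 0.0658). Most of the stellate sum was Ecm1 (74.8 and 51.4 FPKM on average, adjusted p = 0.0532 by limma) and Colec11 (35.1 and 22.4). The 10 fibroblast markers summed to 54.3 to 65.8 and 39.1 to 49.8, with 3 of 6 tested called lower (Gsn, Dpt and Pdgfra) and 1 higher. Most of the fibroblast sum was Dpp4 (26.5 and 21.0 FPKM, not called) and Gsn (22.2 and 11.2). Of the pericyte and smooth muscle markers, 2 of 5 tested were called lower, Pdgfrb and Acta2. No marker of endothelial cells (0 of 9) or macrophages (0 of 9) was called by limma (2 and 0 lower at an unadjusted p under 0.05, 0 higher). Of the adipocyte markers, Cidec, a lipid droplet protein, was lower (41.8 to 13.7 FPKM, adjusted p = 0.0148 by limma). Fabp4 averaged 3.86 FPKM with vehicle and 6.49 with SFN (log2 fold change 0.48, adjusted p = 0.593). Adipoq, Plin1, Lep and Retn averaged at most 0.0087 FPKM in either group, so Cidec is not read here as a marker of adipocytes. The part of cell number in the collagen result was not tested.

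In eWAT, 2 of the 26 members tested fell, Col15a1 and Col6a3, against 0.0431% of all 13908 genes called lower. Col15a1 read 94.2, 86.7, 89.2, 98.6 and 126.4 FPKM with vehicle and 64.1, 48.5, 40.8, 38.2 and 40.4 with SFN. All SFN mice were below all vehicle mice (log2 fold change -1.11, standard error 0.155, adjusted p = 0.0295). Col6a3 read 44.7, 40.7, 45.2, 44.4 and 42.1 with vehicle and 32.0, 24.4, 20.2, 18.3 and 22.4 with SFN, also with no overlap (log2 fold change -0.91, standard error 0.132, adjusted p = 0.0295). Both calls were lost when vehicle mouse 1, 2, 3 or 4 or SFN mouse 7 or 10 was left out, where 0 members passed, and with no filter on low genes. Without SFN mouse 8, 1 passed.

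Col6a1, Col6a2 and Col18a1 did not pass with limma or edgeR, while DESeq2 called these 3 and Col5a3 lower along with Col15a1 and Col6a3. The share of all eWAT genes called by DESeq2 is not given. Of the remaining type VI chains, Col6a5 had a log2 fold change of 0.18 (adjusted p = 0.75) and Col6a6 of -0.59 (adjusted p = 0.348). Col6a2 had 91.2, 87.8, 110.7, 124.5 and 145.0 FPKM with vehicle and 82.3, 70.3, 59.8, 61.7 and 66.8 with SFN (adjusted p = 0.0861). Col6a1 had 172.1, 167.1, 224.0, 247.4 and 287.6 with vehicle and 163.9, 158.7, 120.7, 127.5 and 133.5 with SFN (adjusted p = 0.14). Col18a1 had 38.6, 34.3, 34.9, 45.5 and 53.6 with vehicle and 25.2, 29.0, 27.7, 17.1 and 23.6 with SFN (adjusted p = 0.093). In each of the 3 the groups did not overlap, and 6 of the 26 members were so placed, against 1.65% of all genes. The 2 most abundant fibrillar chains did not separate. Col3a1 read 419.7, 413.1, 531.2, 435.0 and 279.7 with vehicle and 431.6, 414.2, 213.7, 379.9 and 424.9 with SFN, and Col1a1 204.8, 206.2, 266.0, 233.3 and 143.4 against 325.1, 215.1, 112.4, 302.1 and 228.3. Vehicle mouse 5 and SFN mouse 8 were lowest for both. The log2 fold changes were -0.17 (standard error 0.226) and 0.11 (standard error 0.279). At an unadjusted p under 0.05, 7 members were lower, against 5.71% of all genes, and the median was -0.22 against 0.003. Among genes that act on collagen only Pdgfa, a growth factor for fibroblasts, was called (1 of the 12 inducers and brakes tested, log2 fold change -0.65, adjusted p = 0.0453), and 0 genes of the other 5 pathway lists were called by limma. At an unadjusted p under 0.05 those 5 lists held 3 of 13, 0 of 10, 2 of 10, 1 of 12 and 0 of 8 genes higher and 0 lower, against 7.64% of all genes higher. Fibroblast markers summed to 1274.1 to 2070.4 FPKM with vehicle and 904.6 to 1663.9 with SFN, adipocyte markers to 1273.1 to 4359.3 and 799.5 to 2387.6, and macrophage markers to 2736.7 to 5684.5 and 5583.0 to 9099.6, with Mrc1 the 1 marker of 9 called (higher). Their part in the result was not tested.

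In skeletal muscle 0 of the 25 members passed, as 0% of the 12800 genes tested did with limma. The members were mostly lower, with 23 of 25 log2 fold changes negative, against 54.7% of all genes. At an unadjusted p under 0.05, 13 were lower and 0 higher, against 8.02% of all genes lower, and the median log2 fold change was -0.45 against -0.02 over all genes. EdgeR on the recovered reads also called 0, and DESeq2 called 7 (Col1a1, Col1a2, Col3a1, Col6a1, Col6a2, Col6a3 and Col15a1, all lower). The share of all genes called by DESeq2 is not given, so the 7 cannot be set against the 0% of limma.

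Col15a1 had the smallest p in muscle, with 8.79, 7.62, 8.16, 9.49 and 8.78 FPKM with vehicle and 6.33, 4.34, 5.97, 6.17 and 5.46 with SFN. The groups did not overlap (log2 fold change -0.6, standard error 0.106, adjusted p = 0.16). Col6a1 read 19.7, 15.5, 18.9, 22.4 and 20.2 with vehicle and 10.8, 7.37, 13.1, 12.0 and 11.6 with SFN, again apart (log2 fold change -0.82, standard error 0.151, adjusted p = 0.162). Col3a1 read 15.4, 12.4, 14.8, 21.9 and 19.6 with vehicle and 7.92, 4.72, 9.94, 8.86 and 8.22 with SFN, and Col6a3 5.08, 4.52, 4.8, 6.02 and 5.85 against 3.89, 3.25, 3.74, 3.96 and 3.63. In these and in Col1a1, Col1a2 and Col6a2, 7 members in all, every SFN mouse was below every vehicle mouse, against 1.69% of all genes. SFN mouse 7 was the lowest for the first 4.

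The basement membrane chains of muscle, its most abundant collagens, differed by less than the spread. Col4a1 read 33.1, 36.8, 28.7, 31.4 and 27.0 FPKM with vehicle and 28.2, 29.7, 37.7, 25.3 and 25.9 with SFN (log2 fold change -0.1, standard error 0.118), and Col4a2 31.9, 33.8, 29.1, 31.5 and 27.5 against 31.6, 28.8, 35.4, 24.9 and 24.0. The muscle-enriched Col22a1 averaged 5.97 with vehicle and 4.44 with SFN (log2 fold change -0.44, adjusted p = 0.35), while Col7a1 had 0.065. Summed collagen FPKM was 195.8 ± 15.7 and 144.3 ± 21.7. No gene of the 6 pathway lists was called in muscle by limma (0 of 57 tested, 4 higher and 11 lower at an unadjusted p under 0.05). Of all 12800 muscle genes tested, 719 were higher and 1026 (8.02%) lower at that p. The smallest p belonged to Bmp1 in the cross-linking list (log2 fold change -0.7, adjusted p = 0.116) and to Tgfb2 among the inducers (-0.44, adjusted p = 0.162). All 10 fibroblast markers had negative log2 fold changes (median -0.54), their sum was 254.8 to 603.8 FPKM with vehicle and 176.2 to 451.8 with SFN, and tendon markers had a median of -1.18 over 5 genes with sums of 35.8 to 63.7 and 17.4 to 48.3. Most of the fibroblast sum was Gsn, which averaged 362.2 FPKM with vehicle and 265.1 with SFN. The part of fibroblasts and tendon in the collagen values was not tested.

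**Figure D3:**
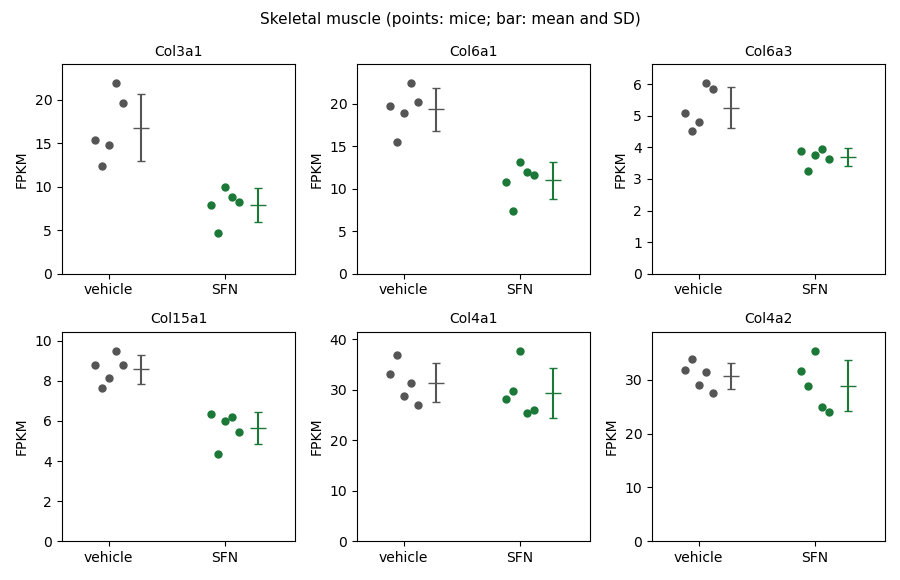
FPKM in skeletal muscle of the 4 collagen genes with the smallest p (Col3a1, Col6a1, Col6a3, Col15a1) and of the most abundant pair (Col4a1, Col4a2), with vehicle mice in grey, SFN mice in green, points for mice and bars for the mean and SD (n = 5). The first 4 panels do not overlap and the Col4 panels do, and no gene passed the adjusted test.

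BAT resembled muscle in that 24 of 25 members had a negative log2 fold change, against 49.5% of all 13327 genes. None passed with limma (0.0075% of all genes did). At an unadjusted p under 0.05, 16 were lower and 0 higher, against 7.08% of all genes lower, and the median was -0.54 against 0.0023. EdgeR called 1 (Col4a5) and DESeq2 13, all lower, with no share of all genes given for either tool. Col4a5, a minor basement membrane chain, read 2.04, 2.24, 2.23, 2.31 and 2.27 FPKM with vehicle and 1.84, 1.48, 1.57, 1.49 and 1.25 with SFN, with no overlap (log2 fold change -0.52, standard error 0.0981, adjusted p = 0.0682). Col5a3 read 48.8, 62.7, 44.7, 50.2 and 42.0 against 40.5, 37.1, 35.8, 39.1 and 32.4, also apart (adjusted p = 0.114). With Col23a1, 3 of 25 members were so placed, against 1.62% of all genes.

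Some fibrillar chains of BAT varied widely among vehicle mice, while Col27a1 varied less (16.4 ± 1.05 FPKM). Col3a1 read 135.4, 248.1, 126.7, 201.7 and 76.3 FPKM with vehicle and 78.7, 59.5, 52.5, 77.5 and 77.3 with SFN. Vehicle mouse 5 lay inside the SFN range, while mice 2 and 4 were far above it (log2 fold change -1.09, standard error 0.277, adjusted p = 0.12). Col15a1 read 26.7, 35.7, 19.9, 33.0 and 21.1 against 18.2, 17.1, 14.8, 20.7 and 17.7 (adjusted p = 0.147). The 2 type IV chains, next to Col3a1 in abundance, differed by less than their spread, with Col4a1 at 136.4, 158.7, 118.8, 163.6 and 118.8 against 124.5, 125.5, 142.7, 122.8 and 138.8, and Col4a2 at 115.6, 126.8, 98.2, 129.4 and 102.7 against 106.6, 100.2, 113.0, 103.3 and 112.8. Summed collagen was 826.8 ± 241.8 and 559.2 ± 40.3 FPKM. All 10 fibroblast markers of BAT had negative log2 fold changes (median -0.67, 7 lower at an unadjusted p under 0.05, 0 called by limma) and summed to 879.3 to 1379.3 FPKM with vehicle and 802.8 to 1096.5 with SFN. Most of this sum was Gsn, which averaged 906.1 FPKM with vehicle and 834.3 with SFN (log2 fold change -0.11). The part of fibroblasts was not tested.

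In iWAT all 21 members tested had a negative log2 fold change, against 53.8% of all 14142 genes. By limma 0 passed (0.00707% of all genes did). At an unadjusted p under 0.05, 11 were lower, against 5.62% of all genes, and the median was -0.53 against -0.018. No member was free of overlap (0 of 21, against 0.983% of all genes). EdgeR called 0 and DESeq2 4 (Col3a1, Col6a2, Col6a3 and Col15a1, all lower), with no share of all genes given for either tool. Col6a3 read 42.3, 24.2, 37.2, 50.0 and 54.9 FPKM with vehicle and 13.1, 16.8, 14.1, 27.7 and 22.0 with SFN (log2 fold change -1.15, standard error 0.259, adjusted p = 0.329). Col15a1 read 155.0, 97.2, 133.0, 157.5 and 162.9 against 66.0, 66.5, 42.3, 110.0 and 78.2 (log2 fold change -1, adjusted p = 0.359). For both, the vehicle mouse inside the SFN range was mouse 2, whose library held lymph node markers.

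Col3a1 of iWAT read 203.4, 99.5, 176.4, 216.7 and 252.4 FPKM with vehicle and 54.1, 109.8, 93.1, 112.6 and 135.9 with SFN, and Col6a2 85.9, 43.7, 68.2, 82.2 and 96.4 against 29.0, 52.4, 41.1, 48.5 and 53.7. Col4a1 was less far apart, at 310.9, 187.3, 273.3, 315.9 and 341.8 against 153.7, 218.6, 265.5, 226.9 and 304.1, as was Col4a2 at 291.6, 164.7, 236.7, 266.4 and 304.3 against 133.0, 175.9, 237.7, 187.3 and 251.4. Mouse 2 was the lowest vehicle mouse and mouse 6 the lowest SFN mouse for Col3a1 and both type IV chains. Without the 4 lymph node libraries, 4 vehicle and 2 SFN mice remained. Of 21 members, 19 were negative with a median of -0.46, 11 were lower at an unadjusted p under 0.05 and 0 passed. The share and median of all genes in this smaller fit are not given, so 11 of 21 has no background beside it. With all libraries, 10 of 10 endothelial markers had a negative log2 fold change, against 53.8% of all genes. At an unadjusted p under 0.05, 6 were lower, against 5.62% of all genes (sums of 191.5 to 249.3 FPKM with vehicle and 150.4 to 215.5 with SFN). Of the 9 pericyte and smooth muscle markers tested, 8 were negative and 4 lower at that p (145.9 to 216.9 and 129.2 to 396.0 FPKM). Acta2, the 1 positive marker, holds most of this sum. It averaged 94.9 ± 14.4 FPKM with vehicle and 191.3 ± 110.7 with SFN (log2 fold change 0.81). Of the 10 fibroblast markers, 8 were negative and 0 lower at that p (2566.0 to 4433.0 and 3177.1 to 4972.3 FPKM). Most of this fibroblast sum was Gsn, which averaged 2908.7 FPKM with vehicle and 3261.7 with SFN (log2 fold change 0.17). No marker of the 3 lists was called by limma. The part of these cells and of lymph node tissue in the collagen values was not tested.

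Hypothalamus showed little. Of 28 members 0 passed with limma (0% of all 15522 genes did), 0 with edgeR and 0 with DESeq2, and 2 were lower at an unadjusted p under 0.05, against 2.92% of all genes. The median was -0.023 against 0.01, and 0 of 28 were free of overlap (0.412% of all genes). The 2 were the fibrillar Col11a2, with 5.03, 4.68, 5.2, 5.9 and 5.42 FPKM against 5.0, 3.98, 4.08, 4.81 and 4.42 (adjusted p = 0.73), and the fibril-associated Col9a3, with 5.09, 5.02, 4.97, 4.33 and 4.46 against 4.51, 3.79, 3.61, 4.68 and 3.34 (adjusted p = 0.745). Both sets overlapped. Col5a3 read 3.12, 1.87, 2.03, 1.69 and 1.69 against 2.01, 2.66, 2.77, 1.95 and 2.59, and Col15a1 3.01, 2.85, 3.29, 2.59 and 3.4 against 2.88, 2.67, 2.74, 2.78 and 2.82. The 3 most abundant chains were within their spread. Col4a2 read 16.1, 16.9, 18.7, 16.4 and 18.4 against 18.6, 16.2, 17.6, 16.5 and 18.4, Col16a1 10.4, 8.75, 9.29, 9.72 and 9.08 against 9.54, 8.64, 8.84, 8.65 and 9.92, and Col4a1 7.8, 8.77, 9.01, 8.52 and 8.56 against 9.09, 8.72, 9.27, 8.18 and 8.93.

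**Figure D4:**
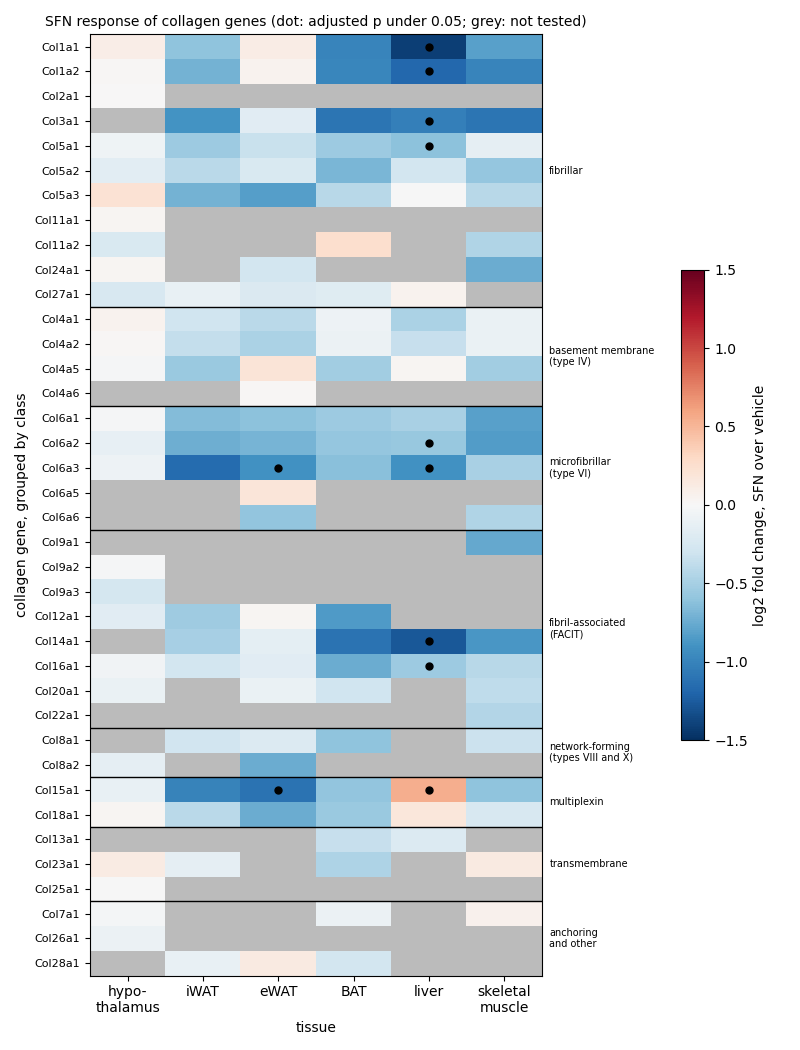
Log2 fold change of SFN over vehicle for the 38 collagen genes (rows, grouped by class) in 6 tissues (columns), blue for lower and red for higher, grey where the mean was under 0.5 FPKM and a dot where the adjusted p was under 0.05. Blue fills most of the tested cells of iWAT, BAT and skeletal muscle, the 9 dots of liver include 1 red cell (Col15a1), and hypothalamus is pale throughout.

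By class, the fibrillar genes had medians of -0.61 in liver (7 tested, 4 called lower), -0.66 in muscle (8 tested), -0.61 in BAT (8), -0.6 in iWAT (7), -0.22 in eWAT (8) and 0.013 in hypothalamus (10). Type VI had medians of -0.57 in liver, -0.62 in eWAT, -0.73 in iWAT, -0.58 in BAT, -0.66 in muscle and -0.075 in hypothalamus, with 2 of 3 called in liver and 1 of 5 in eWAT. Fibril-associated genes had -0.91 in liver (2 of 2 called), -0.8 in BAT, -0.5 in iWAT, -0.44 in muscle, -0.12 in eWAT and -0.098 in hypothalamus. Type IV medians were smaller in BAT (-0.089) and muscle (-0.1) and were -0.36 in iWAT, -0.35 in liver and -0.2 in eWAT, with 0 of 3 or 4 called in any tissue by limma (at an unadjusted p under 0.05, 1 lower in each of iWAT, BAT and liver), while edgeR and DESeq2 called Col4a5 lower in BAT and DESeq2 called Col4a1 lower in liver. Multiplexins had -0.93 in eWAT, -0.7 in iWAT, -0.58 in BAT, -0.42 in muscle, -0.04 in hypothalamus and 0.36 in liver. The remaining classes had at most 2 members tested in any tissue and 0 called by limma, and 1 of them, Col23a1 in BAT, was lower at an unadjusted p under 0.05.

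**Figure D5:**
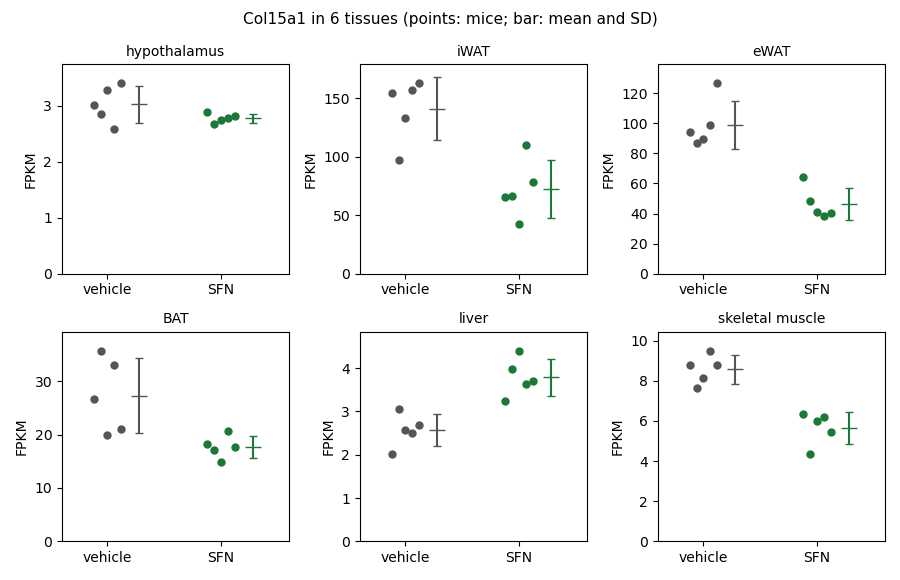
Col15a1 FPKM in each of the 6 tissues, with vehicle mice in grey, SFN mice in green, points for mice and bars for the mean and SD (n = 5). SFN mice are lower without overlap in eWAT and skeletal muscle, lower with overlap in iWAT and BAT, higher without overlap in liver and within the vehicle range in hypothalamus.

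Whether the response of muscle differed from that of another tissue was tested as the SFN effect in muscle minus that in the other tissue, over 20686 genes. Against liver, 4 of 38 members passed, against 7.31% of all genes. Col15a1 differed by -1.15 (standard error 0.227, adjusted p = 0.000606), lower in muscle and higher in liver. The others were Col6a6 (-1.17, adjusted p = 0.0142), Col9a1 (-0.66, adjusted p = 0.0221) and Col28a1 (1.09, adjusted p = 0.0457), which in liver were at most 0.312, 0.0272 and 0.134 FPKM in any library. Col9a1 had 0 to 2 reads per liver library and Col28a1 0 to 8, so for these the liver response could hardly be measured. In muscle Col28a1 had only 9 to 29 reads per library. With the mouse as a replicate block, which pairs muscle and liver of the same animal, 3 passed and Col28a1 did not (adjusted p = 0.0609). Against eWAT, 1 of 38 passed, Col9a1 (-0.77, adjusted p = 0.027), against 1.13% of all genes. Col9a1 had 0 reads in every eWAT library, so this value restates its difference in muscle and is no test of a difference between the tissues. That call was lost without mouse 3, 4, 5, 6, 8, 9 or 10, and against liver the 4 became 2 without mouse 3, 4, 6, 7, 8 or 10 and 1 without mouse 5. Against hypothalamus, iWAT and BAT, 0 passed with limma (0.131%, 0.14% and 0.121% of all genes did), while 10, 4 and 3 members had an unadjusted p under 0.05, against 7.21%, 11.3% and 9.15% of all genes. The count tools were not run for this comparison.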

How the data were processed

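The authors deposited FPKM per gene for all 60 libraries and, per tissue, tables of genes with raw read counts as deposited. FPKM as deposited carries gene length and 1 factor per library set by the authors. The submitters' processing notes name mm10 and GRCm38 as builds. Aligner, counter and annotation: not given in the sources used here. The tables' own fold changes and p-values, and 120 further per-library columns, were not used. Names and positions came from GENCODE M21 (GRCm38), which named 54409 of 54532 IDs. Reads were recovered from FPKM, gene length and the deposited counts. Of 38197 genes above 0, 98.58% came out whole within 0.01 of a read, the 544 others were left out of count tests, and 0 of 146080 known counts differed. Depth was 14802638 to 25258292 recovered reads.

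Genes averaging 0.5 FPKM or more over a tissue's 10 libraries were tested two-sided as log2(FPKM + 0.1) of the deposited values by limma 3.58.1 with an intensity trend (R 4.3.3), Benjamini-Hochberg adjusted over all genes tested. A fold change on this scale understates that of low genes. EdgeR 4.0.16 and DESeq2 1.42.0 ran on recovered reads as alternatives. Fits were tested on simulated data. Each mouse gave 1 library per tissue. Vehicle and SFN mice differ, so within a tissue nothing pairs them, while the labels' mouse id ties libraries of different tissues to 1 animal. The data show little of it: same-mouse libraries had a median correlation of deviations of 0.029 (150 pairs) against -0.007 (600 pairs of different mice). Named in every library were the members called (up to 10 by p), the 4 with the smallest p and the 3 with the highest vehicle mean in each tissue. For pathway lists the gene with the smallest p is named, and other list genes were named after their values were seen. Members and lists were chosen with earlier results of these data known.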

Additional observations from a re-analysis of the deposited data

Results flagged for a closer look

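Among 86 groups of 5 mice, those of the genes given by library, 2 held a mouse far from the other 4. Chance flags about 1 in 20 groups. Col3a1 in eWAT was 213.7 FPKM in SFN mouse 8, against 379.9 to 431.6 in the other 4 SFN mice. Col5a3 in hypothalamus was 3.12 FPKM in vehicle mouse 1, against 1.69 to 2.03 in the other 4 vehicle mice.

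The SFN response in muscle minus that in another tissue passed limma's test for 4 genes. For Col15a1 the difference from liver was -1.15 on the log2 scale. For Col6a6 the value against liver was -1.17 and for Col28a1 1.09, which did not pass with the mouse as a replicate block (adjusted p = 0.0609). For Col9a1 it was -0.66 against liver and -0.77 against eWAT. These 3 genes were under 0.5 FPKM in every liver library, Col28a1 with at most 8 reads and Col9a1 with at most 2. Col9a1 also had 0 reads in every eWAT library, so for Col9a1 the values mostly restate muscle. Col28a1 was low in muscle too (mean 0.291 FPKM, 9 to 29 reads per library), so its value rests on few reads in both tissues.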

How the results depend on the processing

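The 9 members called in liver became 6 with no filter on low values, 10 with TPM or edgeR, 11 with DESeq2 and 6 to 9 without each mouse. In eWAT the 2 called members became 0 with no filter on low values, 6 with DESeq2, 4 with all tissues in 1 fit, and 0 to 2 without each mouse. From 0 called, iWAT reached 4 with DESeq2 and 4 with all tissues in 1 fit, BAT 1 with edgeR, 13 with DESeq2 and 2 with all tissues in 1 fit, and muscle 7 with DESeq2 and 7 with all tissues in 1 fit. The 30 members with a distinct highest tissue were 25 to 31 without each mouse. For muscle minus iWAT and muscle minus BAT the 0 members became 1 with log2(FPKM + 1), and for muscle minus eWAT the 1 became 0 after rescaling to TPM. Without each mouse, the counts were 0 to 1 for muscle minus hypothalamus, iWAT, eWAT and BAT and 1 to 4 for muscle minus liver. With the mouse as a replicate block, counts were 29 members with a distinct highest tissue, and 0, 0, 1, 0 and 3 for muscle minus hypothalamus, iWAT, eWAT, BAT and liver. The share of all genes called is given only for the main limma fit, so the counts of other fits have no background. The causes were not tested.

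Signs turned for 4 genes that did not pass. Col4a2 in hypothalamus became -0.013, -0.0066, -0.011 and -0.0067 without mouse 1, 4, 6 or 10 (-0.013 to 0.041 over all mice left out). Col3a1 in eWAT became 0.017 without mouse 8 (-0.31 to 0.017), and Col1a1 in eWAT -0.026, -0.031 and -0.0047 without mouse 5, 6 or 9 (-0.031 to 0.35). Col5a3 in liver became 0.013 with edgeR, 0.005 with DESeq2, and 0.027 and 0.066 without mouse 4 or 8 (-0.068 to 0.066). Depth limits the members under 0.5 FPKM, which in liver had as few as 0 reads in a library.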
